A study of Mus musculus with 6 samples.

Results

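The miR-365 and miR-193 hairpins of the mouse were read in small RNA from extracellular vesicles, membrane particles that cells release and that the labels call exosomes, prepared from muscle of mice in a young and an old group. There were 3 libraries of young and 3 of old muscle, numbered in their titles. The labels do not say whether these came from separate animals, so the spread between libraries may be technical, and the sources used here do not give ages, strain, sex, muscles or vesicle isolation. The members were 8 of the 2110 mature miRNA loci in the count table. They comprise the loci of miR-365-3p (MIMAT0000711 at Mir365-2 and its copy at Mir365-1), miR-193a-3p (MIMAT0000223) and miR-193b-3p (MIMAT0004859), and the opposite arm of each of their 4 hairpins, taken as the locus on the same strand within 80 bases. The set was chosen by the measured fold change of miR-365-3p, which was lower in old than in young vesicles in these same libraries. The differences between old and young are therefore given as a description, without a test, for all members. The question was whether the clustered partners of miR-365-3p were lower with it.

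A miRNA hairpin is cut into a duplex of a 5p and a 3p strand, of which one usually stays in the silencing complex and pairs with target messages through its seed, while the other is mostly degraded. Hairpins that lie close together on one strand are often cut from one primary transcript, and yet their mature products can accumulate to different levels. The Mir193b and Mir365-1 cluster is known for its induction during the formation of brown fat cells, a lineage related to skeletal muscle, although mice without the cluster still form brown fat. The miR-193 family has been studied mostly as a brake on cell growth, and miR-365 in cartilage cells under load.

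The cluster exists in 2 copies in the mouse genome (mm10), each with a miR-193 hairpin followed by a miR-365 hairpin on the plus strand. On chromosome 16, Mir193b (chr16:13449523-13449601) and Mir365-1 (chr16:13453840-13453926) were 4238 bases apart. Both lie opposite to an intron of the antisense RNA gene Gm15738 in GENCODE M21, and within the long noncoding RNA genes Gm32817 and Gm53058 in RefSeq. On chromosome 11, Mir193a (chr11:79711969-79712034) and Mir365-2 (chr11:79726400-79726511) were 14365 bases apart, and no other gene overlapped either hairpin in these annotations. All 8 loci matched a mature miRNA in RefSeq (GRCm38.p6) by position. The mature strands are shown because their likeness decides which hairpins the counts can tell apart, with the seed (bases 2 to 8 from the 5′ end) in capitals.
miR-365-3p, from Mir365-1 and from Mir365-2: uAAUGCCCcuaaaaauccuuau
miR-193b-3p: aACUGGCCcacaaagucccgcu
miR-193a-3p: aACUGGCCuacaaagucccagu
miR-365-1-5p: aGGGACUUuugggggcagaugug
miR-365-2-5p: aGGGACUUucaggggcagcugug
miR-193b-5p: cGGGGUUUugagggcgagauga
miR-193a-5p: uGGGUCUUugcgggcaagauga
The 2 miR-193 3p strands shared 1 seed, which no other name among 1679 mature miRNAs in RefSeq carried, and the seed of miR-365-3p was carried by that miRNA alone. From miR-193a-3p to miR-193b-3p there were 3 substitutions in 22 bases, U9C, A20G and G21C, counted from the 5′ end and all outside the seed. The 5p strands of the 2 miR-365 hairpins also shared a seed and had 3 substitutions in 23 bases from miR-365-1-5p to miR-365-2-5p, U10C, G11A and A19C. The 5p strands of the miR-193 hairpins had 5 substitutions in 22 bases, U1C, U5G, C6U, C11A and A16G from miR-193a-5p to miR-193b-5p, so that their seeds differed.

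The miR-365 hairpins are shown whole, with both mature strands in capitals, since their 3p strands are identical while the 5p strands and the flanks are not.
Mir365-1: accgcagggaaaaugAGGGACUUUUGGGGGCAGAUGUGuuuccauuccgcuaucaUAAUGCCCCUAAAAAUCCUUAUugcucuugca
Mir365-2: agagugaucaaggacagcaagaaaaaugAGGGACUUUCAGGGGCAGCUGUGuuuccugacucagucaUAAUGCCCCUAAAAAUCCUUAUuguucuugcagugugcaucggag
A read of mature miR-365-3p can thus come from either cluster. Of 1159 counts of miR-365-3p, 611 (52.7%, 95% exact binomial interval 49.8 to 55.6) stood at Mir365-1. In the single libraries this share ran from 44.97% (37.3 to 52.8) in old replicate 2 to 55.5% (49.4 to 61.5) in young replicate 2, and the interval held an even split in 6 of 6 libraries. Both loci therefore stand for 1 measurement, and values of miR-365-3p below are sums over them unless a locus is named. Intervals cover counting error only.

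The libraries held 904892 to 1706396 counts, and the member loci took 0.0240% to 0.0353% of them. Muscle markers were present, with miR-206-3p the most abundant and 8 of 10 loci counted, and their summed share was 4.95% to 6.26% of counts in young and 4.61% to 9.91% in old libraries, the highest in old replicate 1. Old replicate 1 was the smallest library and the one least like its group: the chi-square of counts over its degrees of freedom was 176 and 281 against old replicates 2 and 3, and 30.3 between those 2. Between the groups, the marker share of smooth muscle and fibroblasts was 2.81% to 3.11% in young and 3.59% to 4.36% in old, all 5 loci having a count. That of leukocytes was 0.111% to 0.138% and 0.0882% to 0.108%, with 4 of 5 loci counted and miR-142a-3p at 0, and that of neural tissue 0.00451% to 0.00664% and 0.00751% to 0.0103%, with 3 of 6 loci counted and miR-9-5p at 0. Red blood cell markers took 4.03% to 4.36% and 4.13% to 4.52%, liver markers 0.0165% to 0.0176% and 0.0174% to 0.0187% with miR-122-5p at 0, and epithelial markers 0.00130% to 0.00151% and 0.00108% to 0.00205%. The endothelial markers miR-126a-3p and miR-126a-5p were at 0. miR-486-5p, on the muscle and red blood cell lists, was at 0 too, as were 104 of the 106 loci of the table that overlap another locus. Reads were counted with no option for overlapping features, so a marker at 0 is not read as absent from the vesicles. The shares of lists with such a marker may be too low. The part of these shares in the differences below was not tested. In vesicles pooled from a tissue, fewer vesicles of a cell type and fewer copies of a miRNA per vesicle cannot be told apart.

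Levels are in CPM, counts relative to library size, with the size scaled by TMM, a method that sets libraries to a common level on the bulk of miRNAs. The mature loci are 22 or 23 bases long, so that counts can be set against each other without a length term. Of the 8 loci, 5 passed the filter on low counts, and these stand for 4 mature miRNAs. By mean level over all 6 libraries among 317 tested mature miRNAs, miR-365-3p ranked 124, miR-193a-3p 142, miR-193b-3p 177 and miR-193a-5p 229, so that none was among the abundant vesicle miRNAs. The order of the first 2 holds for the young means, 172 against 93.2 CPM, and is the reverse in the old means, 93.4 CPM for miR-365-3p against 106 CPM for miR-193a-3p. miR-193a-3p exceeded miR-193b-3p in 6 of 6 libraries, on average 2.12-fold (mean log2 ratio of counts 1.09 ± 0.65, SD, n = 6, two-sided exact permutation test by sign flips within libraries, adjusted p = 0.0357 over 8 pairs). miR-365-3p, from 2 loci, exceeded miR-193b-3p in 6 of 6 libraries, 2.67-fold on average (log2 ratio 1.42 ± 0.51, exact permutation, adjusted p = 0.0357). It was above miR-193a-3p in 5 of 6 libraries, with old replicate 1 the exception, and these neighbours in the order did not differ beyond their spread (log2 ratio 0.33 ± 0.73, exact permutation, adjusted p = 0.375). Without old replicate 1 the mean log2 ratio of miR-365-3p to miR-193a-3p was 0.57. An adjusted p of 0.0357 is the smallest that these 6 libraries gave, from a raw p of 0.03125.

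miR-365-3p was lower in every old than in every young library. It stood at 179, 165 and 173 CPM in young replicates 1, 2 and 3 and at 60.5, 121 and 98.6 CPM in old replicates 1, 2 and 3. The young libraries lay close together and the old ones spread over a 2-fold range, with old replicate 1 lowest, at 0.351 times the young mean, and old replicates 2 and 3 at 0.703 and 0.572 times. The means were 172 ± 7.21 CPM in young and 93.4 ± 30.6 CPM in old (SD, n = 3 each), a log2 fold change of -0.89 ± 0.25 (SE, edgeR with identical copies summed), or 0.541 times. These values chose the members and are given as a description.

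Reads of miR-365-3p cannot be assigned to a cluster, so the values at its 2 loci split 1 measurement and are not separate observations. Counts as placed were lower in old than in young at both loci. At Mir365-1 the young libraries had 93.8, 91.4 and 93.7 CPM and the old ones 33.3, 54.4 and 52.8 CPM. At Mir365-2 they had 85.5, 73.4 and 78.9 CPM against 27.2, 66.6 and 45.8 CPM. The groups did not overlap at either locus. The log2 fold changes were -0.98 ± 0.25 and -0.75 ± 0.29 (SE). The young SD at Mir365-1, 1.31 CPM, was smaller than the 7.74 CPM that counting alone gives at 136 to 152 counts, so that the near equality of the young libraries there is closer than their depth can measure. Of the 5 tested member loci, 1 (Mir365-1) passed the threshold of 0.05 on the adjusted p in the direction of lower in old, where 0.865% of 347 tested loci did, and 2 had every old library below every young one, where 13.0% did. These 2 were also the member loci without overlap in either direction (27.1% of all tested loci) and the ones with a log2 fold change below 0 (47.6%). With copies summed, 1 of 4 mature miRNAs passed as lower, against 1.58% of 317, and 1 had all old libraries below the young ones, against 12.6%. Since this contrast chose the members, nothing is read from these counts. The call at Mir365-1, from which nothing is read either, was lost without young replicate 1, 2 or 3 (log2 fold change -0.995, -0.98 and -0.98). It was also lost without old replicate 2 (-1.10) and with replicate number as a block in the fit (-1.004), and was kept without old replicate 1, at -0.77. At Mir365-2 the value without old replicate 1 was -0.47.

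**Figure D1:**
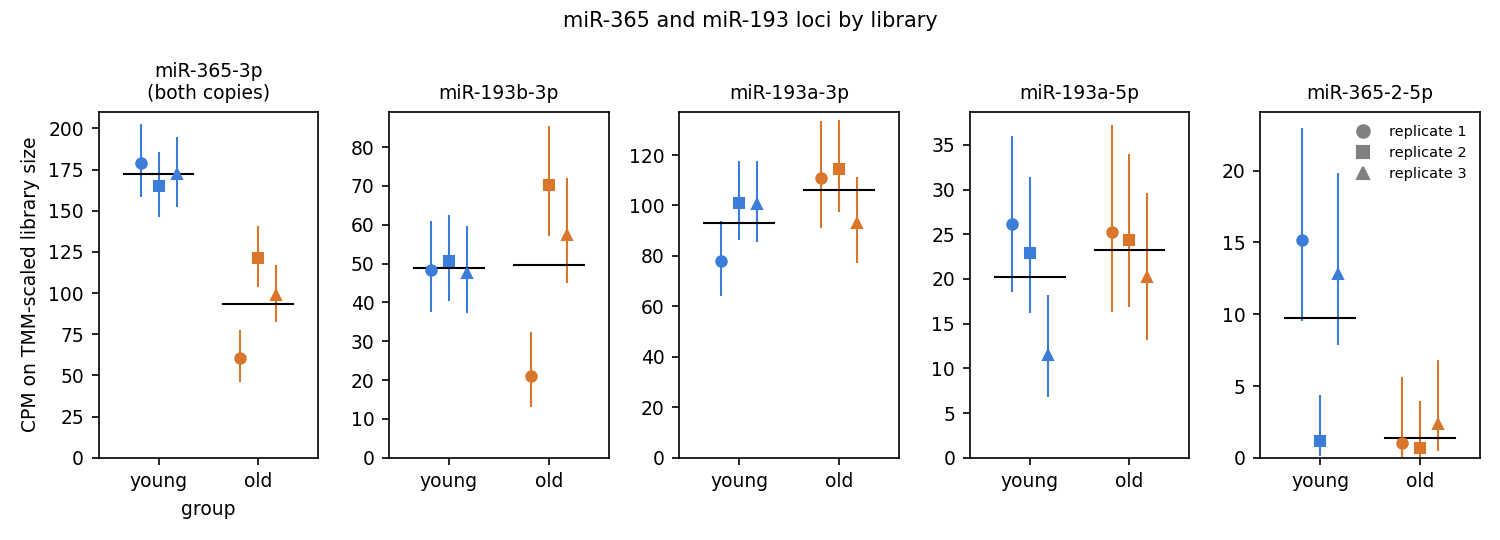
CPM on TMM-scaled library size of 5 members in each library, young in blue and old in orange, with replicates 1, 2 and 3 as circle, square and triangle. Thin bars are 95% exact Poisson intervals of the counts, horizontal lines are group means, and each panel has its own axis from 0. miR-365-3p is lower in all old libraries, while the groups overlap for the other members.

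The partner on chromosome 16, miR-193b-3p, had nearly the same mean in old and young vesicles. It stood at 48.3, 50.5 and 47.5 CPM in the young libraries and at 21.2, 70.2 and 57.4 CPM in the old ones. Old replicate 1 was below the whole young range and old replicates 2 and 3 above it, so that the groups overlapped and the old libraries differed more among themselves than from the young ones. The value of old replicate 1 rested on 21 counts (95% exact Poisson interval 13.1 to 32.4 CPM), and that of old replicate 2 on 98 counts (57.0 to 85.5 CPM), so that these 2 differed beyond counting error. The interval of old replicate 3, 45.1 to 72.1 CPM, covered the young values. The young SD was smaller than the 5.60 CPM that counting alone gives, so the young range is narrower than the depth can measure. The means were 48.8 ± 1.59 and 49.6 ± 25.4 CPM (SD, n = 3 each), a log2 fold change of 0.05 ± 0.33 (SE). Its sign was set by single libraries. Leaving out old replicate 1 gave a log2 fold change of 0.41, leaving out old replicate 2 gave -0.28, and leaving out old replicate 3 gave -0.05.

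The partner on chromosome 11, miR-193a-3p, had a somewhat higher mean in old than in young vesicles, within the spread of the libraries. It stood at 77.9, 101 and 101 CPM in young and at 111, 115 and 93.2 CPM in old vesicles. The old library lowest in miR-365-3p, replicate 1, had one of the 2 highest levels of miR-193a-3p. The groups overlapped, with means of 93.2 ± 13.3 and 106 ± 11.5 CPM (SD, n = 3 each) and a log2 fold change of 0.19 ± 0.22 (SE), which stayed positive without any single library (0.04 to 0.26). miR-193a-5p, the other strand of that hairpin, stood at 26.2, 22.9 and 11.5 CPM in young and at 25.2, 24.3 and 20.2 CPM in old libraries. These groups overlapped too, with a log2 fold change of 0.20 ± 0.36 (SE), which was -0.09 without young replicate 3, the lowest library.

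**Figure D2:**
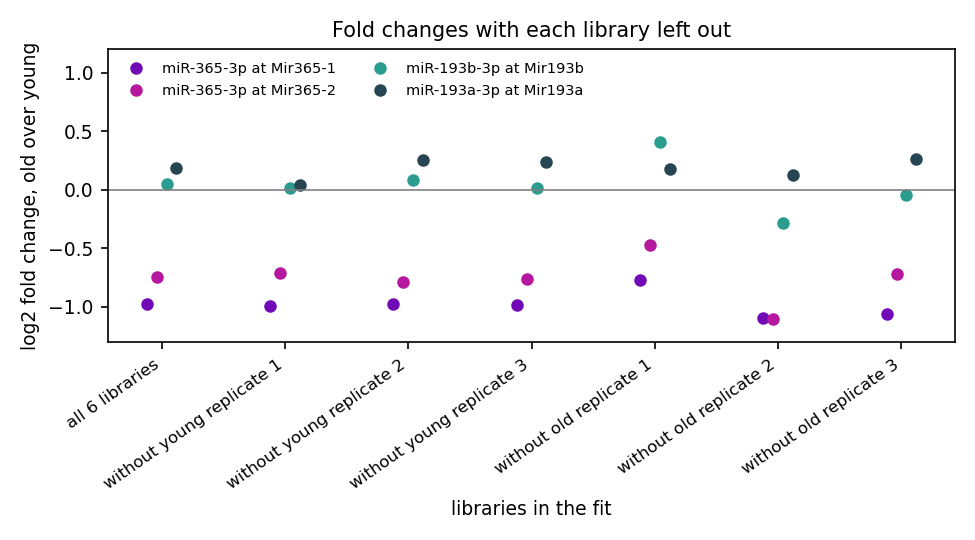
Log2 fold change of old over young from edgeR for the 4 loci of the 3p strands, with all 6 libraries and with each library left out in turn. Both loci of miR-365-3p stay between -1.10 and -0.47, miR-193a-3p stays above 0, and miR-193b-3p runs from -0.28 to 0.41.

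Set against miR-365-3p in the same library, both partners were higher in old than in young vesicles, a comparison that does not depend on the scaling of libraries. The ratio of miR-193b-3p to miR-365-3p counts was 0.269, 0.307 and 0.275 in the young libraries and 0.350, 0.580 and 0.583 in the old ones. That of miR-193a-3p to miR-365-3p was 0.435, 0.613 and 0.584 in young and 1.83, 0.947 and 0.945 in old. The old libraries thus lay above the young ones in both ratios, by 0.79 and 1.13 on the log2 scale (1.04 and 0.81 without old replicate 1), although for miR-193b-3p the interval of old replicate 1 (0.202 to 0.584) covered the young values. The direction of these differences follows in part from the choice of miR-365-3p, and they carry no test. The ratio of the 2 partners to each other, in which miR-365-3p does not enter, was 1.61, 2.00 and 2.12 for miR-193a-3p over miR-193b-3p in young libraries and 5.24, 1.63 and 1.62 in old ones. The 5 libraries other than old replicate 1 lay between 1.61 and 2.12.

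**Figure D3:**
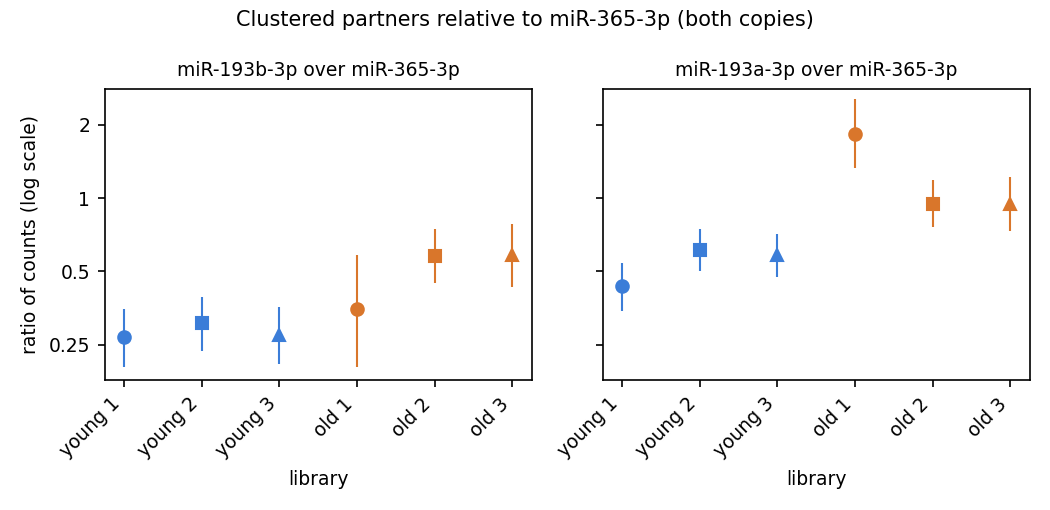
Ratio of counts of miR-193b-3p (left) and miR-193a-3p (right) to miR-365-3p summed over both loci, by library, on a log scale, young in blue and old in orange. Bars are ratios from 95% exact binomial intervals. All old libraries lie above the young ones in both panels, closest for miR-193b-3p in old replicate 1, at 0.350 against 0.307 in young replicate 2.

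Across the 6 libraries the members did not follow one pattern. On the scale of log2(CPM + 1), Pearson's r of miR-365-3p was 0.64 with miR-193b-3p and -0.51 with miR-193a-3p, and that between the miR-193 3p strands was -0.18. Without old replicate 1, left out after the data were seen, r was -0.74 between miR-365-3p and miR-193b-3p, -0.36 between miR-365-3p and miR-193a-3p, and 0.60 between the miR-193 3p strands. The sign of the first and of the last thus rested on that library. These are descriptions over few libraries that share their scaling.

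The 5p loci were counted far less than the 3p loci of each hairpin, and unequally. At Mir193a the 5p strand made up 17.8% of the hairpin's counts (179 counts beside 828 of the 3p strand, 95% exact binomial interval 15.5 to 20.3), with 17.7% (14.5 to 21.2) in the summed young and 17.9% (14.6 to 21.6) in the summed old libraries. The young libraries were unlike each other, with 25.2% (18.5 to 32.9) in replicate 1, 18.4% in replicate 2 and 10.3% (6.21 to 15.8) in replicate 3, while the old ones lay between 17.5% and 18.5%. The intervals of young replicates 1 and 3 did not overlap. At Mir193b the 5p strand had 3 counts, all in young replicate 1, beside 421 of the 3p strand, or 0.708% (0.146 to 2.05). At Mir365-1 the 5p strand, miR-365-1-5p, had no count in any library, which allows up to 0.357 CPM over all counts together. At Mir193a and Mir365-2, where both strands had counts in every library, the 3p strand exceeded the 5p strand in 6 of 6 (exact permutation, two-sided, adjusted p = 0.0357 for each). The mean log2 ratio was 2.22 ± 0.49 at Mir193a and 4.15 ± 1.46 at Mir365-2 (SD, n = 6). At Mir365-1, 611 counts of the 3p locus stood against 0 of the 5p locus. Reads of mature miR-365-3p can come from either miR-365 hairpin, so at these 2 hairpins the 3p counts are as placed at each locus. A ratio of the 2 strands of one miR-365 hairpin cannot be measured from them.

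Of the 2 miR-365 hairpins, reads of the 5p strand, which unlike the 3p strand differs between them, came from Mir365-2. miR-365-2-5p had 22, 2 and 20 counts in young replicates 1, 2 and 3 and 1, 1 and 3 in the old ones, or 15.2, 1.203 and 12.8 CPM against 1.01, 0.716 and 2.33 CPM. Young replicates 1 and 3 stood above the other 4 libraries, and young replicate 2 lay within the old range, so that the groups overlapped. Over all libraries summed it had 49 counts against 0 for miR-365-1-5p, at least 16.3-fold higher. Most of these counts came from young replicates 1 and 3, and the bound does not hold for single libraries. Its counts were too low for the filter, and no fold change between old and young was fitted. Of the counts placed at the 2 loci of this hairpin, the 5p share was 10.7% (44 counts beside 369, interval 7.85 to 14.04) in the summed young libraries. It was 2.72% (5 beside 179, interval 0.888 to 6.23) in the summed old ones, but in young replicate 2 only 2 counts stood beside 122 of the 3p locus. The 3p counts there are part of 803 young and 356 old counts of miR-365-3p that cannot be assigned to one hairpin. These shares and intervals are thus not those of the hairpin's own strands.

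Neighbouring hairpins elsewhere in the genome gave the background for partners with unlike fold changes. Among tested hairpins of one strand no more than 20 kb apart, 79 other pairs with different mature sequences were found. Their log2 fold changes differed by a median of 0.27 (quartiles 0.15 and 0.56, highest 1.43). Those of miR-193b-3p and miR-365-3p at Mir365-1 differed by 1.02, which 3 of the 79 pairs exceeded, and those of miR-193a-3p and miR-365-3p at Mir365-2 by 0.93, which 6 exceeded. Of these pairs 54 had at least 1 hairpin under 200 CPM, with a median of 0.26, and 3 and 5 of them exceeded the member pairs. In the member pairs both hairpins were under 200 CPM, so the 54 pairs are not matched to them in level. The member pairs share the counts of miR-365-3p and were chosen for its fold change, so that this is a description of where they lie.

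**Figure D4:**
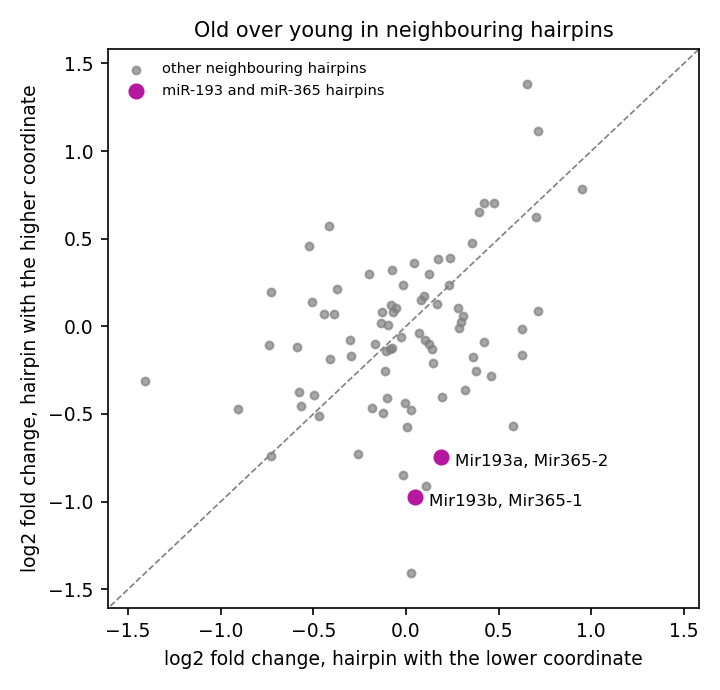
Log2 fold change of old over young for neighbouring hairpins on one strand no more than 20 kb apart, the hairpin with the lower coordinate on the horizontal and the one with the higher coordinate on the vertical axis; the dashed line marks equal values. Grey points are 79 other pairs, and the pairs of miR-193 and miR-365 hairpins lie at 0.19 and 0.05 on the horizontal axis and at -0.75 and -0.98 on the vertical axis.

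The tested miRNAs whose levels ran most like those of miR-365-3p over the 6 libraries were miR-31-5p (Pearson's r 0.98), miR-15b-5p (0.98), miR-501-3p (0.97), miR-362-5p (0.95) and miR-3102-3p (0.95). The members were left out of this ranking, so no clustered partner of miR-365-3p could appear in it. All had negative log2 fold changes, from -0.24 for miR-31-5p to -0.99 for miR-3102-3p. miR-501-3p went with it from 215 CPM in young to 128 CPM in old vesicles, and miR-362-5p from 148 to 87.7 CPM. Without old replicate 1 their r ran from 0.83 for miR-3102-3p to 0.97 for miR-15b-5p. These are descriptions over 6 libraries, in which the difference between the groups enters every r.

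Other miRNAs named in work on the formation of brown and white fat cells, the process with which the Mir193b and Mir365-1 cluster is linked, did not move in one direction. The list mixes miRNAs that promote and that restrain fat cell formation, so the lack of one direction says nothing of the process. Of 32 tested loci (26 mature miRNAs), 3 rose, 1 fell and 28 did not pass (edgeR's quasi-likelihood test, adjusted over 347 loci, of which 4.32% passed in either direction). Their median log2 fold change was 0.01, against 0.04 over all tested loci, and 16 were below 0. The list was chosen with earlier results of these data known, so its calls and adjusted p values are given as a description. Those that rose were both loci of miR-133a-3p, a muscle miRNA that holds back brown fat formation, at 1.11 ± 0.18 and 1.12 ± 0.18 (SE, edgeR adjusted p = 0.000900 for each), and miR-143-3p, a smooth muscle miRNA that promotes fat cell formation, at 0.70 ± 0.16 (edgeR adjusted p = 0.0137). miR-155-5p, an immune cell miRNA that also restrains brown fat cells, fell by 0.81 ± 0.18 on the log2 scale (edgeR adjusted p = 0.0135). miR-143-3p and miR-155-5p are also the most abundant of the smooth muscle and leukocyte marker lists, whose shares differed between the groups as given above. Those shares include the counts of these miRNAs themselves and so are not a separate measure of cell types. miR-143-3p had 14953 CPM in young and 24355 CPM in old, and miR-155-5p 713 and 407 CPM. The part of cell types in the result was not tested. miR-378a-3p, whose hairpin lies in the Ppargc1b gene, was the most abundant of the list and had 18955 ± 583 and 24977 ± 2797 CPM (SD, n = 3 each) and did not pass (0.40 ± 0.16, edgeR adjusted p = 0.155). With identical copies summed, 2 of the 26 mature miRNAs rose and 1 fell. Without old replicate 1, 6 of the 32 loci of the list rose and 4 fell, where 25 of all 359 tested loci were higher and 20 lower.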

How the data were processed

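Reads were counted per mature miRNA locus by the authors with featureCounts 2.0.6, per the file headers, with no option for strand, multi-mapping or overlapping features; the deposited values are raw counts. Per the submitters' processing notes, reads were aligned with BWA to mm10. The sources used here give no trimming or aligner settings. No member locus overlapped another locus. Names came from RefSeq mature positions (1734 of 2110 loci), else from GENCODE M21 miRNA genes on the same assembly.

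Old and young libraries were compared by the quasi-likelihood test of edgeR 4.0.16 in R 4.3.3, after filterByExpr (minimum count 10, minimum total 15) and TMM scaling, with Benjamini-Hochberg adjustment over 347 loci and a threshold of 0.05. Standard errors came from the coefficient and its F statistic. Levels were compared by exact sign-flip permutation of log2 ratios of counts with 0.5 added, adjusted over 8 pairs. Alternatives were DESeq2 1.42.0, other scalings, no count filter, a replicate block and each library left out; correlations without old replicate 1 were added after seeing the data. The fit was tested on simulated data. The members and lists were chosen with earlier results of these data known. Named were all members, the 5 miRNAs outside the members most like miR-365-3p, and of the fat-cell list the 2 most abundant loci and those past the threshold.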

Additional observations from a re-analysis of the deposited data

How the results depend on the processing

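The log2 fold changes of miR-365-3p were negative under every alternative run, between -1.10 and -0.77 at Mir365-1 and between -1.10 and -0.47 at Mir365-2. The Mir365-1 value was past the threshold in 9 of 14 settings, 1 of them the fit with both copies summed (-0.89). The Mir365-2 value was past it in 1 of 14, that same fit of both copies. Since this contrast chose the members, nothing is read from these calls. With a replicate block the Mir365-1 value was -1.004 and not past. The value of miR-193a-3p was positive in all 14 (0.04 to 0.26).

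The number of all loci higher in old was 12, and 5 with a replicate block (5 to 25 with a library left out, the 25 without old replicate 1). The number lower was 3, and 9 with DESeq2, 8 without miR-21a-5p, 5 with no count filter and 1 with a replicate block (0 to 20 with a library left out; the 20 came without old replicate 1, and the 0, without old replicate 2, stood beside 23 at an unadjusted p under 0.05 in edgeR). With copies summed 11 were higher and 5 lower. No pairing by replicate number was visible: deviations from the group means correlated at -0.14, 0.03 and -0.14 between libraries of the same number. Not every library was most like its own number. The labels do not say whether libraries of one number were prepared together, and with so few libraries these correlations cannot decide it.

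With a library left out, no level comparison could pass, since the smallest p from 5 libraries is 0.0625. Mean log2 ratios then ran from 0.83 to 1.17 for miR-193a-3p over miR-193b-3p and 1.32 to 1.54 for miR-365-3p over miR-193b-3p. For 3p over 5p they ran from 2.04 to 2.35 at Mir193a and, with 3p counts as placed at that locus, from 3.79 to 4.49 at Mir365-2. Where the 5p strand was at 0 in 5 or 6 libraries, the ratios follow the 0.5 added to counts and are neither estimates nor bounds of a fold: 3p over 5p was 6.54 at Mir193b (6.32 to 6.98) and 7.49 at Mir365-1 (7.34 to 7.78), and miR-365-2-5p over miR-365-1-5p was 3.19 (2.73 to 3.51), against 5.68, 6.503 and 2.42 with 1 added. The partner ratios to miR-365-3p, old minus young, stayed positive (0.67 to 1.04 and 0.81 to 1.29), while that of miR-193a-3p over miR-193b-3p was 0.34 and ran from -0.22 to 0.62. Of the fat-cell list, 2 loci fell with DESeq2, without miR-21a-5p and with no count filter, and 0 with a replicate block (4 at an unadjusted p under 0.05 in edgeR); with a library left out 2 to 6 rose and 0 to 4 fell. The cause of these changes was not tested. Depth limits the 5p strands of Mir193b and of both miR-365 hairpins, with 0 to 49 counts in all.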
